A study of Homo sapiens with 6 samples.

Results

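The IL6-family signalling genes described here are 10 of the 29908 genes with a value in the 6 libraries: the ligands LIF and IL11, the receptor chains IL6ST, IL6R, IL11RA, LIFR and OSMR, the kinase JAK1, the transcription factor STAT3 and its feedback inhibitor SOCS3. They were chosen by name, through the Ensembl identifiers that GENCODE release 29 gives these symbols, and each symbol had 1 row. The libraries come from Hep3B, an established human hepatocellular carcinoma line, 3 libraries being Hep3B-Con and 3 Hep3B-KD. Hep3B-KD cells were transduced with lentivirus carrying a short hairpin RNA that targets DAGLA, which encodes diacylglycerol lipase alpha, an enzyme that makes the endocannabinoid 2-arachidonoylglycerol. Hep3B-Con cells received a control virus, which the sample titles call shControl and the series design calls an empty vector. Both groups were selected with puromycin, so both are stable populations of 1 line, and the knockdown rests on 1 hairpin. The design text calls the 3 samples of a group biological replicates without saying how they were separated.

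Cytokines of the IL6 family signal through receptor complexes that share the chain gp130, the product of IL6ST. IL6 and IL11 first bind their own receptors, IL6R and IL11RA, and then recruit gp130, whereas LIF joins LIFR to gp130 and oncostatin M can join OSMR to gp130. The kinase JAK1, bound to these chains, phosphorylates STAT3, which enters the nucleus and induces target genes, among them SOCS3, whose product blocks the kinase at gp130. In hepatocytes the pathway is known for the acute-phase response, the secretion of plasma proteins such as C-reactive protein and fibrinogen during inflammation.

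The values are FPKM, reads scaled to the exon length of the gene and to the depth of the library, so that levels of different genes can be set side by side. Fold changes are Hep3B-KD against Hep3B-Con on the log2(FPKM + 0.1) scale, which understates the change of low genes. They were tested with limma over the 14221 genes that averaged 0.5 FPKM or more across the libraries, and adjusted p-values are Benjamini-Hochberg values over all of them. Library depth ranged from 15861039 to 17572714 reads. DAGLA itself was at 9.28 ± 0.228 FPKM (SD, n = 3) in Hep3B-Con and 4.62 ± 0.164 FPKM (SD, n = 3) in Hep3B-KD, a log2 fold change of -0.99 (adjusted p = 5.25e-06, limma). The liver labels were matched by hepatocyte and hepatoma markers, of which all 11 were tested. Their summed level was 5170 to 5290 FPKM per library in Hep3B-Con and 7390 to 7500 FPKM in Hep3B-KD. Most of that sum was ALB (mean 2040 FPKM in Hep3B-Con, 3310 in Hep3B-KD) and APOA2 (2140 and 2810). Of the 11 markers, 8 were higher and 3 lower in Hep3B-KD. Much of the transcriptome differed between the groups: 59.9% of tested genes had an adjusted p under 0.05, and the median log2 fold change of all tested genes was 0.11.

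Both tested ligands fell and all 3 tested receptor chains rose. LIF fell 6.13-fold in mean FPKM, IL6ST, IL6R and IL11RA rose with the kinase JAK1, STAT3 rose by about as much as the median gene, and IL11 fell from an already low level. Under alternative settings no direction reversed, but IL11 lost its call in 6 of 15 and IL11RA in 7 of 16. Of the 10 members 7 passed the filter on low values, 5 of them higher and 2 lower at an adjusted p under 0.05. Of the 14221 genes tested, 36.1% were higher and 23.8% lower by the same call. At a fold of at least 2, IL6R and IL6ST were higher and LIF was lower, against 5.89% of all tested genes higher and 2.94% lower. That split depended on the scaling: after quantile normalization IL6R (0.97) and IL6ST (0.96) lay just under a fold of 2 on the log2 scale and LIF and IL11 were the members past it, both lower. After median-centring, which shifts each library by its median log ratio, IL6ST (0.96) dropped below it and IL11 (-1.04) passed it. In all 7 tested members the 3 Hep3B-KD values did not overlap the 3 Hep3B-Con values, which was also so in 66.9% of all tested genes. LIFR, OSMR and SOCS3 lay under the filter and are given as values without a test. With 3 libraries against 3, a two-sided exact permutation test of a single gene cannot go below p = 0.1. Since the RNA was extracted from whole cultures, fewer cells with a transcript and less of it per cell cannot be told apart.

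**Figure D1:**
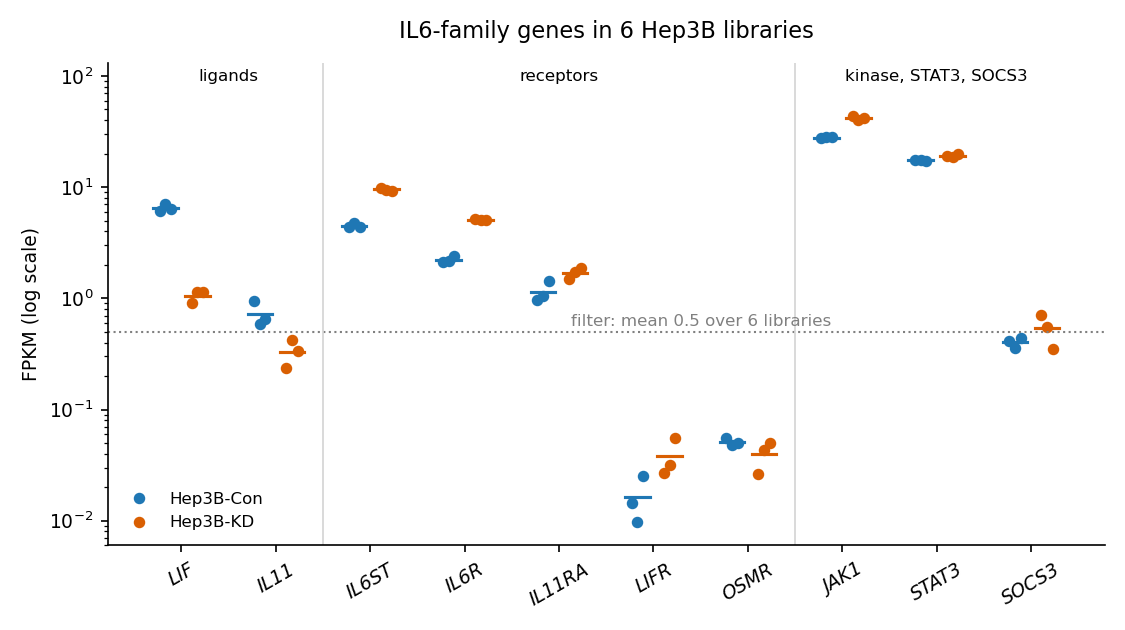
FPKM of the 10 members on a log axis, with 1 point per library, blue for Hep3B-Con and orange for Hep3B-KD, a bar at each group's mean of 3 libraries, and a dotted line at the filter of 0.5 FPKM, which applied to the mean of all 6 libraries. LIF and IL11 lie lower and IL6ST, IL6R, IL11RA and JAK1 higher in Hep3B-KD, while LIFR and OSMR stay near the bottom of the scale at 11 reads or fewer per library.

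LIF (ENSG00000128342) lies on chromosome 22 (GRCh38, 30240447 to 30246851, minus strand). Its levels in Hep3B-Con replicates 1 to 3 were 6.09, 6.99 and 6.39 FPKM, from 425, 482 and 422 reads. In Hep3B-KD they were 0.905, 1.13 and 1.14 FPKM, from 57, 72 and 75 reads. Every Hep3B-KD library held fewer LIF reads than any control library, with a wide gap between the groups. The mean went from 6.49 ± 0.455 to 1.06 ± 0.132 FPKM (SD, n = 3). The log2 fold change was -2.51 (standard error 0.105, 95% interval -2.76 to -2.26, adjusted p = 4.15e-06 from limma), which ranked 32 from the lowest of the 14221 tested genes. In Hep3B-Con, LIF exceeded 58.3% of tested genes in FPKM, and in Hep3B-KD 14.5%. LIF-AS1 and AC004264.1, antisense transcripts that share 92 and 175 exon bases with LIF, held at most 12 reads in any library.

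IL11 (ENSG00000095752, chromosome 19, 55364389 to 55370463, minus strand) was the weaker case. Its Hep3B-Con libraries were at 0.937, 0.582 and 0.652 FPKM, from 44, 27 and 29 reads. The Hep3B-KD libraries were at 0.236, 0.42 and 0.338 FPKM, from 10, 18 and 15 reads. The groups did not overlap, although the nearest values, in Hep3B-Con replicate 2 and Hep3B-KD replicate 2, were 27 and 18 reads. The log2 fold change was -0.93 (standard error 0.303, 95% interval -1.66 to -0.21, adjusted p = 0.0341 from limma). The call did not hold without Hep3B-Con replicate 1 (adjusted p = 0.123) or replicate 3 (0.0714), nor without Hep3B-KD replicate 1 (0.0786) or replicate 3 (0.0634), with the log2 fold change below 0 each time. The promoter of IL11 is shown because it holds TGAGTCA, a form of TGANTCA, the letters that AP-1 factors such as JUNB bind. It covers 250 bases before to 50 after the start site in RefSeq (GRCh38.p14, chr19:55370414-55370713, minus strand), and the capitals mark the match, 96 bases before the start.
IL11 promoter: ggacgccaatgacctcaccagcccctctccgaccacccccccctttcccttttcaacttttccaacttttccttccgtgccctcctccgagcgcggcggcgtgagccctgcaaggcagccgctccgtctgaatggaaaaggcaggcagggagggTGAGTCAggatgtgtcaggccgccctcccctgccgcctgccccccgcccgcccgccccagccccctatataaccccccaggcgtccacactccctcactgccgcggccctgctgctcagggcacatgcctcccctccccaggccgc
On either strand, TGANTCA occurs in 7.71% of the 35116 RefSeq promoters of this length.

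Of the receptor chains, IL6ST (ENSG00000134352, chromosome 5, 55935095 to 55994993, minus strand) was the most abundant. Its gp130 product is the signalling chain shared by the receptors of IL6, IL11 and LIF. The control libraries were at 4.36, 4.77 and 4.36 FPKM and the Hep3B-KD libraries at 9.89, 9.43 and 9.26 FPKM. With 674 to 770 reads per control library and 1407 to 1457 per Hep3B-KD library, the gap was far wider than the spread within either group. The mean rose from 4.5 ± 0.236 to 9.52 ± 0.326 FPKM (SD, n = 3). The log2 fold change was 1.07 (standard error 0.0524, 95% interval 0.94 to 1.19, adjusted p = 7.77e-06, limma), and in FPKM the gene went from above 49.5% to above 66.3% of tested genes.

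IL6R (ENSG00000160712, chromosome 1, 154405193 to 154469450, plus strand), the chain that binds IL6, rose like IL6ST. Its levels were 2.11, 2.17 and 2.42 FPKM in Hep3B-Con and 5.12, 5.10 and 5.11 FPKM in Hep3B-KD. The Hep3B-KD libraries, at 524 to 547 reads, were nearly equal and held more than any control library, at 239 to 260 reads. The mean rose from 2.23 ± 0.166 to 5.11 ± 0.00791 FPKM (SD, n = 3), with a log2 fold change of 1.16 (standard error 0.0661, 95% interval 1.0 to 1.32, adjusted p = 1.38e-05, limma). The promoter of IL6R, given for comparison with that of IL11, also holds TGAGTCA, here 37 bases after the start and therefore within the transcript (RefSeq, GRCh38.p14, chr1:154405093-154405392, plus strand).
IL6R promoter: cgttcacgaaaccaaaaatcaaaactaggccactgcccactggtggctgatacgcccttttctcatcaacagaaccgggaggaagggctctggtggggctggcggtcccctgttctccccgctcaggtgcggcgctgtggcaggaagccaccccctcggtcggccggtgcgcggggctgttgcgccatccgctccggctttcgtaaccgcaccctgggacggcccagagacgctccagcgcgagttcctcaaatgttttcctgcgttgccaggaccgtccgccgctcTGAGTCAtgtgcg
The genes with these letters in the promoter thus included one that was lower and one that was higher in Hep3B-KD.

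IL11RA (ENSG00000137070, chromosome 9, 34650702 to 34661892, plus strand), the chain that binds IL11, was at 0.973, 1.04 and 1.43 FPKM in Hep3B-Con and 1.49, 1.73 and 1.86 FPKM in Hep3B-KD. Hep3B-Con replicate 3, with 102 reads, came within 1 read of Hep3B-KD replicate 1, with 101 reads, and the groups were separate only after scaling for depth. The log2 fold change was 0.54 (standard error 0.169, 95% interval 0.13 to 0.94, adjusted p = 0.0301 from limma). The call did not hold without Hep3B-Con replicate 1 (0.086) or replicate 2 (0.0871), nor without Hep3B-KD replicate 2 (0.0806) or replicate 3 (0.0949). Median-centring of the log ratios (adjusted p = 0.0649) or quantile normalization (0.195) ended it too. IL11RA shares 334 exon bases with GALT on the same strand, and GALT was higher by 0.50 on the log2 scale (adjusted p = 0.0129, limma, but 0.126 under quantile normalization), so reads from the shared bases cannot be assigned to one gene.

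LIFR (ENSG00000113594, chromosome 5, 38474963 to 38608354, minus strand), the chain that LIF needs, was nearly absent from the reads. It had 3, 2 and 5 reads in Hep3B-Con and 5, 6 and 11 reads in Hep3B-KD, 0.0165 ± 0.00802 and 0.038 ± 0.0157 FPKM (SD, n = 3). The FPKM values of the groups did not overlap, with p = 0.1 in the two-sided exact permutation test, the smallest it allows here. OSMR (ENSG00000145623, chromosome 5, 38845858 to 38945596, plus strand), the oncostatin M receptor chain, was as low, at 7, 6 and 6 reads in Hep3B-Con and 3, 5 and 6 reads in Hep3B-KD. Its groups overlapped (p = 0.3, two-sided exact permutation test). OSMR shares 229 exon bases with RICTOR on the opposite strand, which held 373 to 426 reads in Hep3B-Con and 849 to 873 in Hep3B-KD, so that even these few reads may include some of RICTOR if strand was not counted. The ratio of mean FPKM, Hep3B-KD over Hep3B-Con, was 2.31 for LIFR and 0.781 for OSMR, from these few reads. With no filter, the limma log2 fold change was 0.24 for LIFR (95% interval -0.16 to 0.64) and -0.11 for OSMR (-0.54 to 0.31), and neither passed. The 0.1 FPKM added before the logarithm exceeds every value of both genes. That fit could therefore hardly show a difference in either gene, and whether they differ is not settled here.

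JAK1 (ENSG00000162434, chromosome 1, 64833229 to 64966504, minus strand), the kinase on the receptor chains, was the most abundant member. It was at 27.5, 28.0 and 28.0 FPKM in Hep3B-Con and 43.2, 40.5 and 41.8 FPKM in Hep3B-KD. All control libraries lay within 1 FPKM of each other and well below the lowest Hep3B-KD library. The mean went from 27.8 ± 0.241 to 41.8 ± 1.35 FPKM (SD, n = 3), a log2 fold change of 0.59 (standard error 0.0288, 95% interval 0.52 to 0.66, adjusted p = 7.80e-06, limma).

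STAT3 (ENSG00000168610, chromosome 17, 42313324 to 42388568, minus strand) was at 17.5, 17.5 and 17.3 FPKM in Hep3B-Con and 19.1, 18.7 and 19.9 FPKM in Hep3B-KD. The groups were separate, with 2534 to 2914 reads in every library, but the step was small. Its log2 fold change was 0.14 (standard error 0.0314, 95% interval 0.07 to 0.22, adjusted p = 0.00687, limma), beside the median of 0.11 over all tested genes. After median-centring of the libraries it was 0.04 (adjusted p = 0.319), so that STAT3 did not pass relative to the median gene. SOCS3 (ENSG00000184557, chromosome 17, 78356778 to 78360077, minus strand), a direct STAT3 target and the feedback inhibitor of the pathway, was at 0.416, 0.358 and 0.439 FPKM in Hep3B-Con and 0.715, 0.547 and 0.353 FPKM in Hep3B-KD. Those values came from 20, 17 and 20 reads against 31, 24 and 16 reads, and the groups overlapped (p = 0.4, two-sided exact permutation test). With no filter its limma log2 fold change was 0.30 (95% interval -0.39 to 1.0, adjusted p = 0.495).

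**Figure D2:**
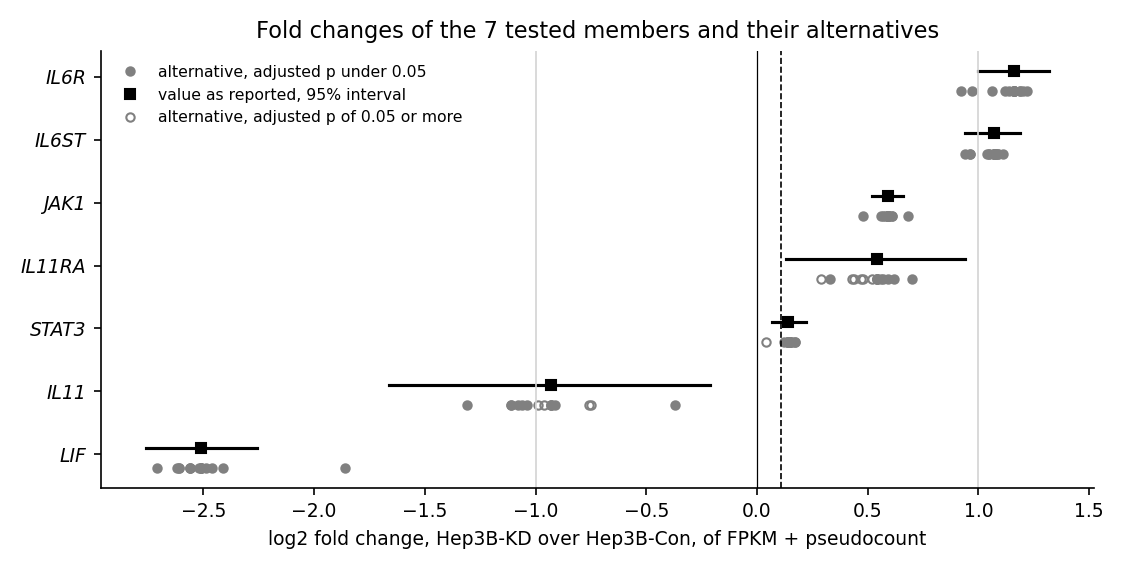
Log2 fold change of FPKM + pseudocount for the 7 tested members, Hep3B-KD over Hep3B-Con. Black squares and lines are the reported values with 95% intervals, grey points the same value under each alternative (filled, adjusted p under 0.05; open, 0.05 or more), solid grey lines a fold of 2 and the dashed line the all-gene median of 0.11. LIF, IL6R, IL6ST and JAK1 have filled points only, whereas IL11, IL11RA and STAT3 also have open ones.

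Ordered by FPKM in Hep3B-Con, the members ran JAK1, STAT3, LIF, IL6ST, IL6R, IL11RA, IL11, SOCS3, OSMR and LIFR, and no neighbours in that order overlapped in their library values. In Hep3B-KD the order was JAK1, STAT3, IL6ST, IL6R, IL11RA, LIF, SOCS3, IL11, OSMR and LIFR. There SOCS3 and IL11 overlapped, as did OSMR and LIFR, so neither pair can be ordered. LIF went from rank 3 to rank 6, below all the expressed receptor chains, and the summed FPKM of the 10 members went from 60.0 to 61.4 per library in Hep3B-Con to 77.7 to 80.7 in Hep3B-KD, mostly through JAK1.

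Since only Hep3B-KD cells carry the DAGLA hairpin, the 3' UTRs of the members were searched for a match to its guide strand. The target sequence in DAGLA, as the study's list of hairpins gives it, has 19 bases, and the capitals mark the 7 bases that pair with the seed, bases 2 to 8 of the guide counted from its 5' end. The guide is the reverse complement of the target, with its seed in capitals.
DAGLA target: gcgacaacaagGCCTTCAa
Guide strand: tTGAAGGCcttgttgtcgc
In the longest annotated 3' UTR of each member, 3 members held GCCTTCA once each, in the last exon. The sites are shown with 11 bases on either side, as transcribed, from GRCh38. They lie at chr22:30240692-30240720 for LIF, chr5:55936096-55936124 for IL6ST and chr5:38480331-38480359 for LIFR, all on the minus strand.
LIF site: cccggcatccaGCCTTCAgtcccgcccac
IL6ST site: actattaatgtGCCTTCAcattgtgattt
LIFR site: cagaattgattGCCTTCAgcacagcatcc
LIF fell and IL6ST rose, and LIFR held too few reads to test, so the members with the letters did not share a direction. The letters were found in 14.6% of the 11189 tested genes with such a 3' UTR, and in 39.2% of the 342 that were lower at a fold of at least 2. Whether the match has a part in the lower LIF was not tested. IL11, the other lower ligand, held no match.

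**Figure D3:**
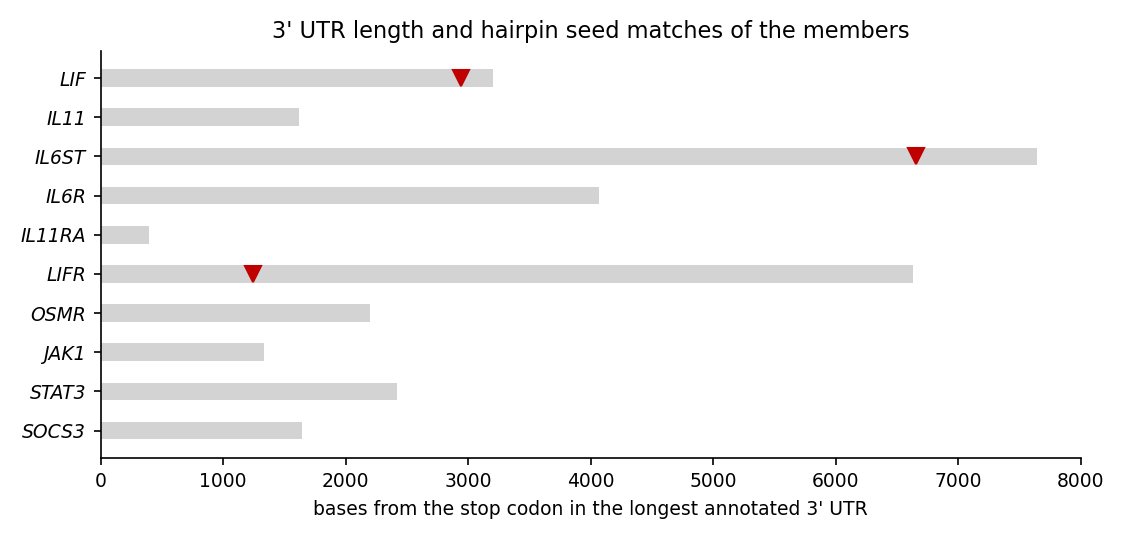
Length of the longest annotated 3' UTR of each member in bases from the stop codon (grey bars) and the position of matches to the hairpin seed (red triangles). LIF has a match near the end of its 3204 bases, at 2942, IL6ST at 6653 of 7641 and LIFR at 1247 of 6632, and the other 7 members have none.

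The remaining promoters of the members were searched in the same way for STAT letters (TTCNNNGAA), AP-1 letters (TGANTCA) and TEAD letters (ACATTCC), the latter sets read because STAT3 acts with AP-1 factors and because the study concerns the TEAD partner YAP. All were read on both strands. The RefSeq table used here gave 15 promoters for 9 of the members, and the promoter of LIF was not searched. TTCNNNGAA stood in 2 of them, both of LIFR, TGANTCA in 3, those of IL11, IL6R and OSMR, and ACATTCC in 0. Over all 35116 promoters the shares were 7.66%, 7.71% and 3.46%. The SOCS3 windows, chr17:78360876-78361175 and chr17:78359618-78359917, held none of these letters. Neither covers the start of the gene in GENCODE, at 78360077, so the bases just before that start were not searched.

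Other genes of the pathway were read from 7 lists holding 80 genes, of which 58 were tested. Of these, 23 were higher and 25 lower at an adjusted p under 0.05, beside 36.1% and 23.8% of all tested genes. Their median log2 fold change was -0.01, beside 0.11 for the whole table. Among 9 other ligands and their partners, 3 were tested and 2 called, both lower. CLCF1, a ligand of the ciliary neurotrophic factor receptor complex, fell from 6.95 ± 0.578 to 3.86 ± 0.81 FPKM (log2 fold change -0.85, adjusted p = 0.00216, limma). IL6 itself had 0 reads in 5 of the 6 libraries and 3 reads in Hep3B-KD replicate 3, and OSM had no row. No tested ligand of the family was called higher. IL31, named after its values were seen, lay under the filter, with 1, 2 and 2 reads in Hep3B-Con and 5, 6 and 4 in Hep3B-KD. With no filter it passed as higher (log2 fold change 1.1, adjusted p = 0.0362, limma).

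Among 3 other receptor chains, CNTFR had at most 2 reads in any library, and IL31RA, a gp130-like chain, fell from 1.35 ± 0.163 to 0.491 ± 0.141 FPKM (log2 fold change -1.31, adjusted p = 0.00239, limma). The rise of receptor chains was therefore not shared by IL31RA. Of the 7 tested of 9 other JAKs and STATs, 5 were higher and 1 lower, beside 36.1% and 23.8% of all tested genes. JAK2, which can also serve gp130, was at 0.60, 0.69 and 0.672 FPKM in Hep3B-Con and 1.44, 1.31 and 1.39 FPKM in Hep3B-KD (log2 fold change 0.97, adjusted p = 0.000758). TYK2 was higher by 0.17 on the log2 scale (adjusted p = 0.00192), which median-centring took to 0.07 (adjusted p = 0.0819). STAT5B did not pass, at -0.08 (adjusted p = 0.123), but did at -0.18 after median-centring (0.00657) and at -0.14 after quantile normalization (0.0204).

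Negative regulators numbered 15, of which 14 were tested, 7 higher and 2 lower, beside 36.1% and 23.8% of all tested genes. The SOCS relatives differed among themselves. SOCS4, SOCS5 and SOCS6, named after their values were seen, were higher by 0.60 (adjusted p = 0.000488, limma), 0.64 (0.000221) and 0.41 (0.00605) on the log2 scale. SOCS2 fell from 1.57 ± 0.106 to 0.855 ± 0.0483 FPKM (log2 fold change -0.81, adjusted p = 0.000978, limma), SOCS1 held 3 to 18 reads per library and was not tested, and CISH, at 0.38, did not pass (adjusted p = 0.0528, but as low as 0.0207 with voom on the recovered reads). PTPN11, a phosphatase recruited by gp130 at the residue that SOCS3 also binds, fell from 49.0 ± 1.27 to 39.9 ± 0.616 FPKM (log2 fold change -0.30, adjusted p = 9.75e-05). Of 3 genes for the shedding of receptors such as IL6R from the cell surface, the protease ADAM10 rose by 0.34 on the log2 scale (adjusted p = 0.000138). The protease ADAM17 fell by 0.70 (adjusted p = 0.000354), and RHBDF2, which brings ADAM17 to the surface, fell from 10.3 ± 0.625 to 4.49 ± 0.299 FPKM (log2 fold change -1.18, adjusted p = 1.38e-05).

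Genes that STAT3 can induce in many cell types were mostly lower: of 17 tested, 5 were higher and 11 lower. Of all genes tested, 36.1% were higher and 23.8% lower. The median gene of the list stood at -0.19 on the log2 scale. Many of them answer to other pathways too. IER3 fell from 103 ± 0.657 to 33.1 ± 0.465 FPKM (log2 fold change -1.64, adjusted p = 5.05e-08, limma), and the AP-1 subunit JUNB from 79.3 ± 15.4 to 28.7 ± 6.15 FPKM (-1.47, adjusted p = 0.000467). TIMP1, an inhibitor of matrix proteases, fell by 1.03 on the log2 scale (adjusted p = 0.0031). ICAM1 and HIF1A, named after their values were seen, were each higher by 0.51 (adjusted p = 1.68e-05 and 1.4e-05, limma). BCL3 and PIM1 were higher, at 0.38 (adjusted p = 0.0118) and 0.40 (0.0126), PIM1 not under quantile normalization (0.0831). CEBPD was at 4.73, 2.56 and 2.29 FPKM in Hep3B-Con and 5.04, 8.69 and 7.39 FPKM in Hep3B-KD, so that the highest control library lay close to the lowest Hep3B-KD library. Its log2 fold change of 1.15 (adjusted p = 0.0161) fell short of the threshold without Hep3B-Con replicate 2 (0.0548) or 3 (0.0506), or without Hep3B-KD replicate 2 (0.0531) or 3 (0.0517), and with the replicate number as a block (0.0501).

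The acute-phase genes that IL6 induces in liver split. Of 23 listed, 12 were tested, 5 higher and 6 lower, and the median gene stood at -0.04 on the log2 scale. Over all tested genes the shares were 36.1% higher and 23.8% lower. Several of the best known were barely read: CRP had 0 to 5 reads per library, SAA1 0 to 2, LBP 0 to 3, HAMP 1 to 13, SERPINA3 1 to 14 and HP 3 to 13. The fibrinogen chain FGA fell from 41.4 ± 0.0492 to 17.7 ± 0.506 FPKM (log2 fold change -1.23, adjusted p = 3.94e-07, limma), FGB by 0.96 on the log2 scale (adjusted p = 5.73e-06) and the orosomucoid gene ORM1 by 1.03 (adjusted p = 0.000437), with the reservation that ORM1 has a near-identical neighbour, ORM2, and reads could be split between them. HPX, which encodes the heme carrier hemopexin, rose from 7.86 ± 0.846 to 22.7 ± 1.02 FPKM (log2 fold change 1.52, adjusted p = 1.04e-05).

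**Figure D4:**
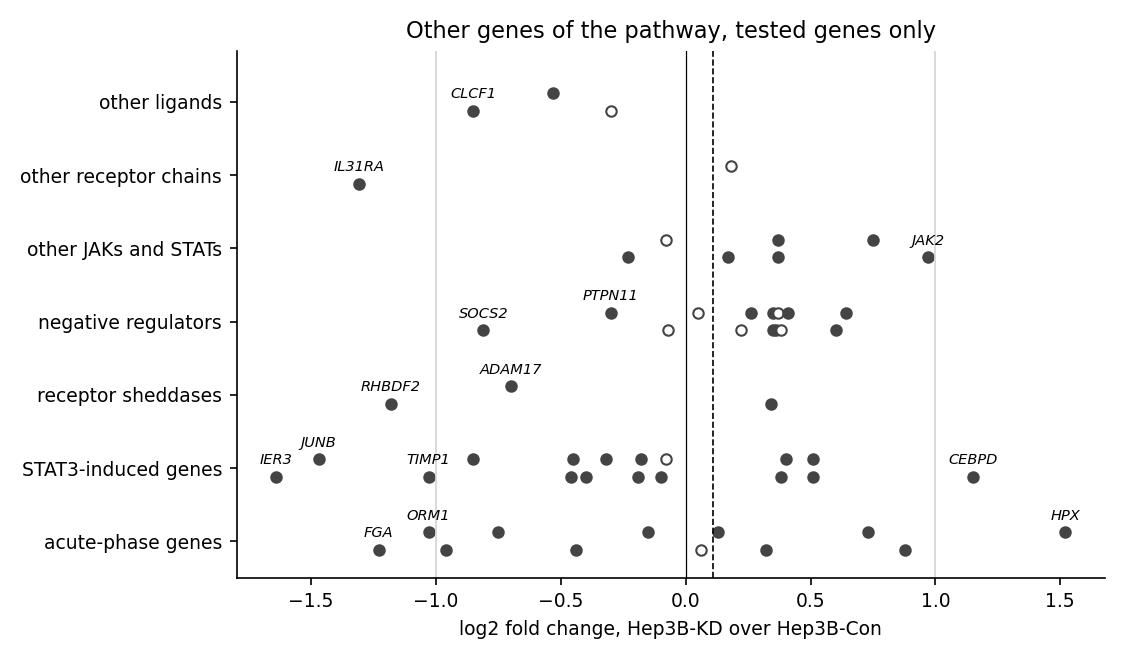
Log2 fold change, Hep3B-KD over Hep3B-Con, of the tested genes of each of the 7 lists, 1 point per gene, filled where the adjusted p was under 0.05, with grey lines at a fold of 2 and a dashed line at the all-gene median of 0.11. Calls lie on both sides of 0 in the lists of kinases and STATs, negative regulators, sheddases, STAT3-induced genes and acute-phase genes, and below 0 for the ligands and receptor chains.

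Some markers of other cell types were read in both groups. Of 9 fibroblast and stellate cell markers 4 were tested and each of these was lower in Hep3B-KD, as were 23.8% of all tested genes. The list's sum went from 11.6 to 13.2 FPKM per library in Hep3B-Con to 7.17 to 7.89 FPKM in Hep3B-KD. Of the 4, LUM went from 6.03 ± 0.364 to 3.29 ± 0.218 FPKM (log2 fold change -0.86, adjusted p = 6.88e-05, limma). The others were PDGFRA (-0.51), PDGFRB (-0.32) and COL1A1 (-1.20). LUM in Hep3B-Con was near the level of LIF. LUM, PDGFRA and PDGFRB were named after their values were seen. COL3A1 and DCN, which also define those cells, had at most 3 reads in every library. Of 10 immune and endothelial markers 2 were tested and 0 called in limma, with sums of 3.04 to 4.69 and 4.37 to 5.22 FPKM. LYZ, the nearer of them, had an adjusted p of 0.0713 in limma (0.0449 unadjusted), and 0.0363 with voom on the recovered reads. The part of these markers in the values of LIF and IL11, which fell with the fibroblast list, was not tested. Among the hepatocyte and hepatoma markers 8 were higher and 3 lower, beside 36.1% and 23.8% of all tested genes. The higher ones included APOB at a log2 fold change of 1.20 (adjusted p = 1.25e-07, limma) and GPC3 at 1.16 (adjusted p = 5.05e-08). The 3 lower ones, named after their values were seen, were HNF4A (-0.35, adjusted p = 1.64e-05, limma), KRT8 (-0.33) and KRT18 (-0.55). Whether the rise of IL6R and IL6ST belongs with those of the 8 higher liver markers was not tested.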

How the data were processed

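RNA of 3 Hep3B-Con and 3 Hep3B-KD samples, grouped by their titles, was sequenced as bulk mRNA libraries. The authors deposited FPKM values in 1 table with 0 columns beyond the 6 libraries. The submitters' processing notes name TopHat2 2.0.12, Bowtie2 2.0.6 and GRCh37. The deposited values nevertheless came out as whole reads, within 0.01 of a read, with the exon lengths of GENCODE release 29 (GRCh38), whose coordinates are given, and the reads summed to 15861039 to 17572714 per library. How the reads were counted, and whether by strand, is not given in the sources used here. Read numbers limit precision through counting error only.

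All rows were kept, also the 382 whose symbol occurs more than once. Genes averaging 0.5 FPKM or more were fitted on log2(FPKM + 0.1) with limma 3.58.1 (lmFit, eBayes with trend) in R 4.3.3 without a replicate block, with Benjamini-Hochberg adjustment, and single genes were compared by exact permutation tests in scipy 1.17.1. Alternatives changed the filter, the pseudocount, the scaling, the trend or the replicate block, left out each library in turn, or ran limma's voom on the recovered reads. The fit was tested on simulated reads in which few genes were changed. At dispersion 0.01 these were 100 at a fold of 2 and 94 at a fold of 4, of 14209 tested. At dispersion 0.1 they were 98 and 96 of 14157. With little spread between replicates (dispersion 0.01), it called 78% of changes at a fold of 2 and 91.5% at a fold of 4. With a wide spread (dispersion 0.1), it called 3.1% and 62.5%. False calls numbered 11 at dispersion 0.01 and 6 at dispersion 0.1. In the data 59.9% of tested genes passed, which makes the adjusted cut-off less strict than in the simulation. The simulated shares therefore do not give the share of changes found in the data. Tables were handled in Python 3.11.15 with pandas 2.3.3 and numpy 2.4.6, and figures drawn with matplotlib 3.10.9.

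Besides the 10 members and DAGLA, genes were named from each list for a fold of at least 2 with an adjusted p under 0.05 (at most 4 in each direction), or from a fixed set of family genes, or for overlapping a member. Some genes of the lists are counted but not reported here by name. The members and lists were chosen with earlier results of these data known. For seed matches, each gene was given its longest annotated 3' UTR, if 50 bases or more. Replicates of a group differed beyond counting noise in each pair (chi-square per gene 1.79 to 3.33), so no library was a second deposit of another. P-values weigh the difference between the groups against the spread between these samples, which may be technical. In limma the spread of a gene was moderated toward that of genes at similar levels.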

Additional observations from a re-analysis of the deposited data

How the results depend on the processing

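LIF, IL6R, IL6ST and JAK1 kept direction and call under all 16 alternatives, with log2 fold changes of -2.71 to -1.86, 0.92 to 1.22, 0.94 to 1.11 and 0.48 to 0.68. IL11 lost its call in 6 of the 15 alternatives that tested it, IL11RA in 7 of 16 and STAT3 in 1 of 16, and no member changed direction. Besides the libraries already named, IL11 and IL11RA lost it with no filter (adjusted p = 0.0559 and 0.0675, limma). Of the 7 members, between 5 and 6 were called when 1 library was left out, and 3 to 4 at a fold of at least 2. A pseudocount of 1 left 1 member at a fold of at least 2, LIF, since it shrinks the fold of low genes. Quantile normalization left 2, LIF and IL11, both lower, and median-centring 3, LIF and IL11 lower and IL6R higher. Calls in the pathway lists, 48 as reported, ranged from 43 to 47 without 1 library and from 45 to 52 under the other alternatives. Over all genes tested 1256 passed a fold of at least 2, 838 higher and 418 lower. A pseudocount of 1 gave 503, centring on the median log ratio 622 higher and 536 lower, and quantile normalization 477 higher and 587 lower. Same-numbered libraries did not deviate together (r of -0.01, -0.07 and 0.00), so no pairing by number was seen in the values. These correlations cannot show whether same-numbered samples were prepared together. With the replicate number as a block, 6 members were called, without IL11 (adjusted p = 0.0904), 3 of them at a fold of at least 2, and 45 list genes. Depth limits LIFR and OSMR, at 11 reads or fewer per library, and SOCS3, at 31 or fewer.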

Other observations

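Genes beside the members were read as values, chosen after the data had been seen. Of 96 protein-coding genes within 250 kb of a member, 61 were tested, and 2 were higher and 2 lower at a fold of at least 2 with an adjusted p under 0.05. Of all tested genes, 5.89% were higher and 2.94% lower by the same call. HORMAD2, 63372 bases from LIF, was also lower, from 1.98 to 0.569 FPKM (log2 fold change -1.67, adjusted p = 0.000671, limma). IL31RA, 12242 bases from IL6ST, was lower while IL6ST was higher. AQP10, a water channel gene 79868 bases from IL6R, rose from 0.37 to 2.13 FPKM (log2 fold change 2.27, adjusted p = 9.04e-05, limma). RICTOR, which overlaps OSMR, was higher by 1.17 on the log2 scale (adjusted p = 1.56e-05).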
